A study of Solenopsis japonica with 2 samples.

Results

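Serine proteases of the fire ant Solenopsis japonica were examined as 35 contigs, the transcript sequences of a de novo assembly, in workers kept at 9 °C or at 25 °C. Contigs were taken from the 4487 of the deposited comparison when their best protein match (NR database) or nucleotide match (NT database) contained trypsin, serine protease, protease serine, serine proteinase, easter-like or snake-like. Of 38 contigs with such a word, 3 were dropped because their names contained inhibitor, and 0 contigs were dropped for venom or for a mammalian match. The best NR match was an ant protein for 35 of the 35 contigs, and for 25 it was a protein of the genus Solenopsis. By name, 17 contigs were gut chymotrypsins or trypsins, 4 were blood proteases of the easter and snake type, and 14 carried other serine protease names.

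The T9 library was made from medium-sized, adult, wild-type workers held at 9 °C for 24 h, and the T25 library from workers of the same kind held at 25 °C for 24 h as the control. Both came from colonies reared at 25 °C on sugar solution and mealworms, and RNA was extracted from pooled whole bodies. There was 1 library per temperature, so the variation from one pool of ants to the next is unknown and no test of temperature was possible. In RNA of whole bodies, fewer cells of a type and less RNA per cell cannot be told apart.

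Serine proteases cut proteins with an active-site serine and are made as inactive precursors. In insects, trypsins cut after basic residues and chymotrypsins after large hydrophobic ones, and both are secreted by the midgut to digest dietary protein. Clip-type proteases carry a small regulatory clip domain and circulate in the blood, where they activate each other in a cascade. In Drosophila, Snake activates Easter, and Easter cleaves the ligand of the Toll receptor. Related clip proteases switch on melanization and antimicrobial defence.

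Counts were scaled by the library sizes behind the authors' normalised values, 53237356 for T9 and 49264352 for T25, and each fold is followed in parentheses by its exact 95% interval (Clopper-Pearson), which covers counting error only. Levels of different contigs are compared as FPKM, fragments scaled by contig length and by library size. Each contig of the table differed by at least 2.35-fold between the libraries and had at least 1 count in each, so contigs with smaller differences, or with no count in a library, were not used here. A contig matched to the mitochondrial genome (c68678_g1_i1) made up 3.53% of the T9 library size and 17.8% of that of T25. With its counts taken off both sizes every log2 ratio moved by -0.23, less than any difference among the 35 proteases.

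Higher counts in the T9 library were found for 25 of the 35 serine protease contigs, and lower counts for 10. Over all contigs of the table, 54.7% were higher in T9. At least 4-fold higher were 19 of the 35, against 36.9% of all contigs, and at least 10-fold higher were 14, against 10.6%. At least 4-fold lower were 6, against 30.8% of all contigs, and at least 10-fold lower were 5, against 10.6%. The median log2 ratio, taken after 1 was added to each scaled count, was 2.75 for the proteases and 1.45 for all contigs. As the table holds no contig near equal counts, such a median depends largely on the share of contigs on the higher side. Among contigs higher in T9 the median was 3.58 for the proteases and 2.15 for all contigs. Among contigs lower in T9 it was -2.27 for the proteases and -2.18 for all contigs. As the authors kept only contigs that differed, the counting interval left out 1 for each of the 35. Several contigs come from 1 gene or from close copies, so they are not independent.

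**Figure D1:**
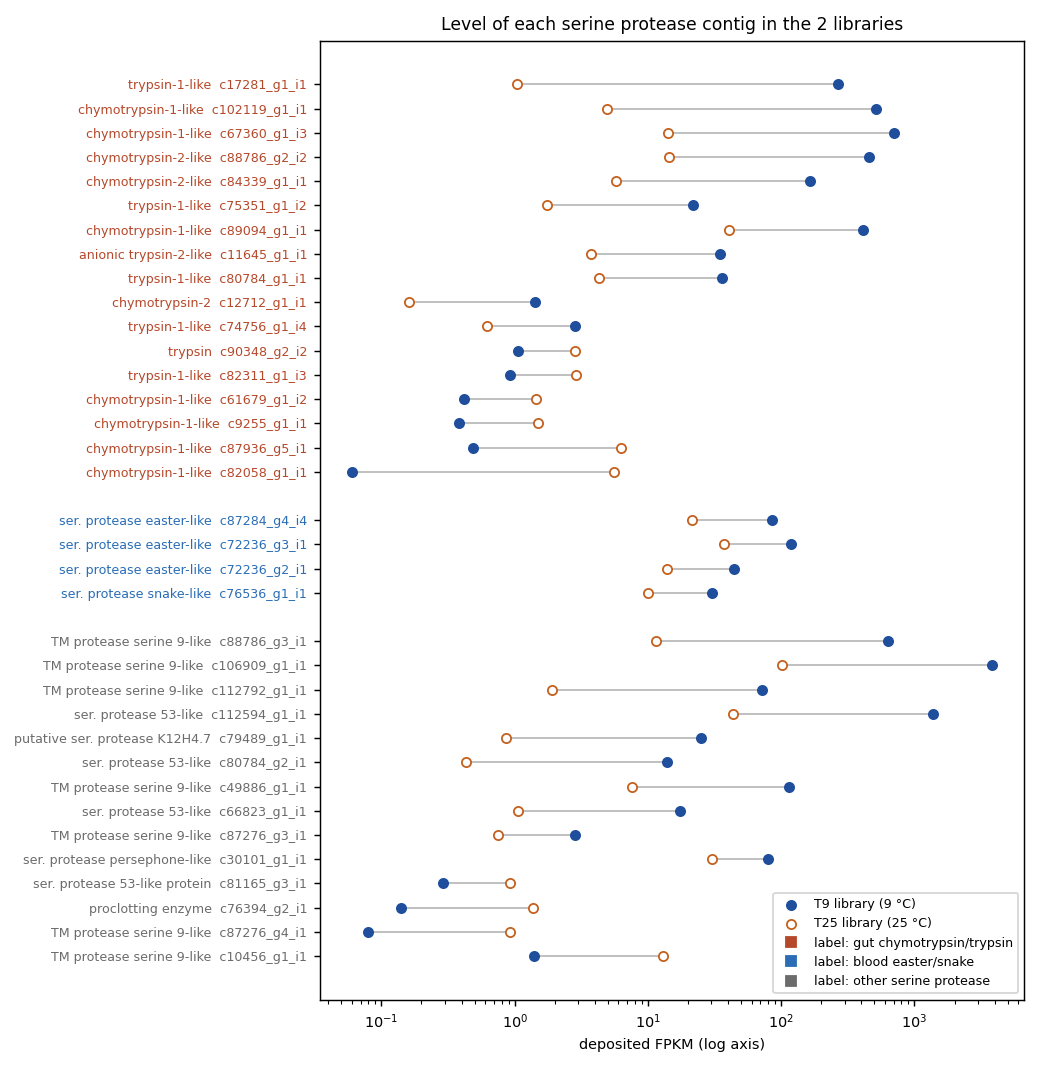
FPKM (log axis) of the 35 serine protease contigs in the T9 library (filled points) and the T25 library (open points), with label colours for gut, blood and other names. The 10 contigs lower in T9 lay at or below 1.4 FPKM in that library, and the highest contig reached 3847 FPKM there.

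Contigs higher in T9 were mostly abundant there. Of these 25, 22 had at least 10 FPKM in T9, against 20.5% of all contigs higher in T9. In T9, 10 of the 35 contigs were among the 100 highest FPKM of the 4487 contigs. In T25, 1 of the 35 was among the 100 highest. These numbers depend on the rank chosen. Next in T25 were c112594_g1_i1, c89094_g1_i1, c72236_g3_i1 and c30101_g1_i1 at places 103, 108, 113 and 128. Next in T9 was c49886_g1_i1 at place 102. Of the 10 contigs lower in T9, 9 had under 10 FPKM in both libraries, near the 92.1% of all contigs lower in T9. Together the 35 contigs held 433049 counts in T9 and 19687 in T25. The ratio of these sums was 20.4-fold (20.1 to 20.6) and 16.3-fold without c106909_g1_i1, the contig with the most counts.

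Among the 17 gut chymotrypsins and trypsins, 11 stood higher in T9, or 64.7% against 54.7% of all contigs, and 6 stood lower. At least 4-fold higher were 11 of the 17, against 36.9% of all contigs, and at least 4-fold lower were 3, against 30.8%. The median log2 ratio of the group was 2.86, against 1.45 for all contigs. The 11 higher contigs had a median of 165 FPKM in T9 and 4.32 FPKM in T25. The 6 lower contigs had a median of 0.455 FPKM in T9 and 2.87 FPKM in T25. Summed counts of the whole group were 127692 in T9 and 5003 in T25, a ratio of 23.6-fold (23.0 to 24.3). Peritrophins, which line the gut, were also higher in sum, with 24165 counts in T9 and 1901 in T25 over 5 contigs, and their part in the ratio of the proteases was not tested. Of that sum c118191_g1_i1 held 75.4% in T9 and 69.4% in T25, while the peritrophin-48-like c85316_g3_i2 had 5 counts in T9 and 165 in T25, 35.7-fold (15.0 to 111) lower.

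The largest ratio belonged to c17281_g1_i1, named trypsin-1-like by NR and chymotrypsin-2-like by NT, with 269 FPKM in T9 and 1.04 FPKM in T25. Its 13033 counts in T9 stood against 51 in T25, a ratio of 236-fold (179.7 to 318). NT names LOC105200925 of the fire ant Solenopsis invicta for it and also for c88786_g2_i2, with 458 FPKM in T9 and 14.5 FPKM in T25. It was 28.9-fold (26.7 to 31.4) higher, so these contigs of 1 gene name shared the direction but not the size of the ratio. Reads of such near copies can be split between contigs by the counting method, and each ratio is uncertain to that degree.

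Chymotrypsin-1-like contigs reached the highest levels of the gut group. The contig c67360_g1_i3 had 705 FPKM in T9 and 14.1 FPKM in T25, a ratio of 45.5-fold (42.4 to 48.9). For c102119_g1_i1 the level was 511 FPKM in T9 and 4.92 FPKM in T25, 95-fold (83.7 to 108) higher. The contig c89094_g1_i1, chymotrypsin-1-like by NR and chymotrypsin-2-like by NT, had 414 FPKM in T9 and 40.7 FPKM in T25. Its T25 level was the highest of the gut group, and its ratio was smaller, 9.28-fold (8.84 to 9.75). The chymotrypsin-2-like c84339_g1_i1 had 165 FPKM in T9 and 5.73 FPKM in T25 and was 26.3-fold (23.7 to 29.2) higher. A partial chymotrypsin-2, c12712_g1_i1, had 35 counts in T9 and 4 in T25, 8.10-fold (2.90 to 31.4) higher, a wide interval from few counts.

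The other trypsins higher in T9, enzymes that can also activate other digestive precursors, reached at most 35.9 FPKM. Trypsin-1-like c75351_g1_i2 had 21.7 FPKM in T9 and 1.74 FPKM in T25, and anionic trypsin-2-like c11645_g1_i1 had 34.7 FPKM in T9 and 3.73 FPKM in T25. The contig c80784_g1_i1, trypsin-1-like by NR and chymotrypsin-2-like by NT, had 35.9 FPKM in T9 and 4.32 FPKM in T25. It was 7.52-fold (4.91 to 12.0) higher. The smallest ratio among the higher gut contigs, 4.21-fold (3.06 to 5.91), belonged to the trypsin-1-like c74756_g1_i4, with 2.86 FPKM in T9 and 0.62 FPKM in T25. Its best UniProt match was mouse coagulation factor XI, a blood-clotting protease, and not a digestive enzyme. The best UniProt match of c80784_g1_i1 was granzyme B of the rat, also not a trypsin by name.

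Gut names did not all lie on 1 side. The chymotrypsin-1-like c82058_g1_i1 had 2 counts in T9 and 200 in T25, 108-fold (29.5 to 898) lower in T9. The chymotrypsin-1-like c87936_g5_i1 had 19 counts in T9 and 249 in T25, 14.2-fold (8.88 to 23.9) lower. These contigs match different genes, LOC105199115 and LOC105199117, and share their best-matching protein in the EggNOG database. Together they had 21 counts in T9 and 449 in T25, 23.1-fold (14.9 to 37.7) lower.

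Smaller ratios were found for the other gut contigs lower in T9. Chymotrypsin-1-like c9255_g1_i1 had 14 counts in T9 and 55 in T25, and chymotrypsin-1-like c61679_g1_i2 had 13 in T9 and 45 in T25. The contig c82311_g1_i3, trypsin-1-like by NR and trypsin-2-like by NT, had 42 counts in T9 and 135 in T25. Trypsin c90348_g2_i2 had 30 in T9 and 81 in T25, 2.92-fold (1.90 to 4.6) lower. At most 2.91 FPKM was reached by any of these contigs in either library.

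Contigs with the same closest characterised enzyme lay on both sides. The best UniProt match of 8 of the 35 contigs was Chymotrypsin-1 of Solenopsis invicta, a digestive enzyme known from fire ant larvae. Of these, 4 were higher in T9, between 28.9-fold and 95-fold, against 54.7% of all contigs, and 4 were lower, between 3.74-fold and 108-fold. The 4 higher contigs had 72.4 to 1369 FPKM in T9 and 1.92 to 43.2 FPKM in T25. The 4 lower contigs had 0.06 to 0.49 FPKM in T9 and 1.44 to 6.28 FPKM in T25. The split was made by the ratio itself, so these levels are a description.

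All 4 blood proteases of the easter and snake type had more scaled counts in T9, against 54.7% of all contigs. Their ratios ran from 2.78-fold to 3.61-fold, in a table that holds no contig under 2.35-fold. At least 4-fold higher were 0 of the 4, against 36.9% of all contigs, and their median log2 ratio was 1.53. Of all contigs higher in T9, 32.5% had a ratio under 4-fold. Summed counts were 20903 in T9 and 6007 in T25, a ratio of 3.22-fold (3.13 to 3.31). Markers of the fat body, a source of blood proteins, had 68514 counts in T9 and 22779 in T25 over 5 contigs, and their part in this ratio was not tested. Most of that sum is the vitellogenin c89203_g1_i4, with 68075 counts in T9 and 22099 in T25, while the storage proteins arylphorin (c72825_g1_i1, 18 counts in T9 and 386 in T25) and hexamerin (c78787_g1_i1, 24 counts in T9 and 200 in T25) were lower in T9.

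The easter-like c87284_g4_i4 had 11619 counts in T9 and 2982 in T25, and 85.2 FPKM in T9 and 21.6 FPKM in T25. It was 3.61-fold (3.46 to 3.75) higher. Its closest UniProt entry is Melanization protease 1 of Drosophila, a clip protease of the melanization cascade. The easter-like c72236_g3_i1 had 120 FPKM in T9 and 37.4 FPKM in T25, and its neighbour in the assembly, c72236_g2_i1, had 44.1 FPKM in T9 and 14.0 FPKM in T25. Both match the gene LOC105204787, and they carry different parts of a clip protease, as c72236_g3_i1 holds the trypsin domain and c72236_g2_i1 the clip domain by their Pfam families. Their ratios, 2.92-fold (2.73 to 3.13) and 2.87-fold (2.49 to 3.32), had overlapping counting intervals. As they match 1 gene, they are not separate cases.

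The snake-like c76536_g1_i1 had 4982 counts in T9 and 1658 in T25, 2.78-fold (2.63 to 2.94) higher, and 30.3 FPKM in T9 and 9.95 FPKM in T25. It is named by NT and UniProt, since its NR match is a hypothetical protein. Persephone, which in Drosophila senses microbial proteases and feeds into Toll activation, is also a clip protease of the blood but carries none of the words easter or snake. The persephone-like c30101_g1_i1 had 80.4 FPKM in T9 and 30.4 FPKM in T25, 2.40-fold (2.03 to 2.85) higher, the smallest fold among the 35 contigs. Its closest UniProt entry is a venom protease of a bumblebee.

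**Figure D2:**
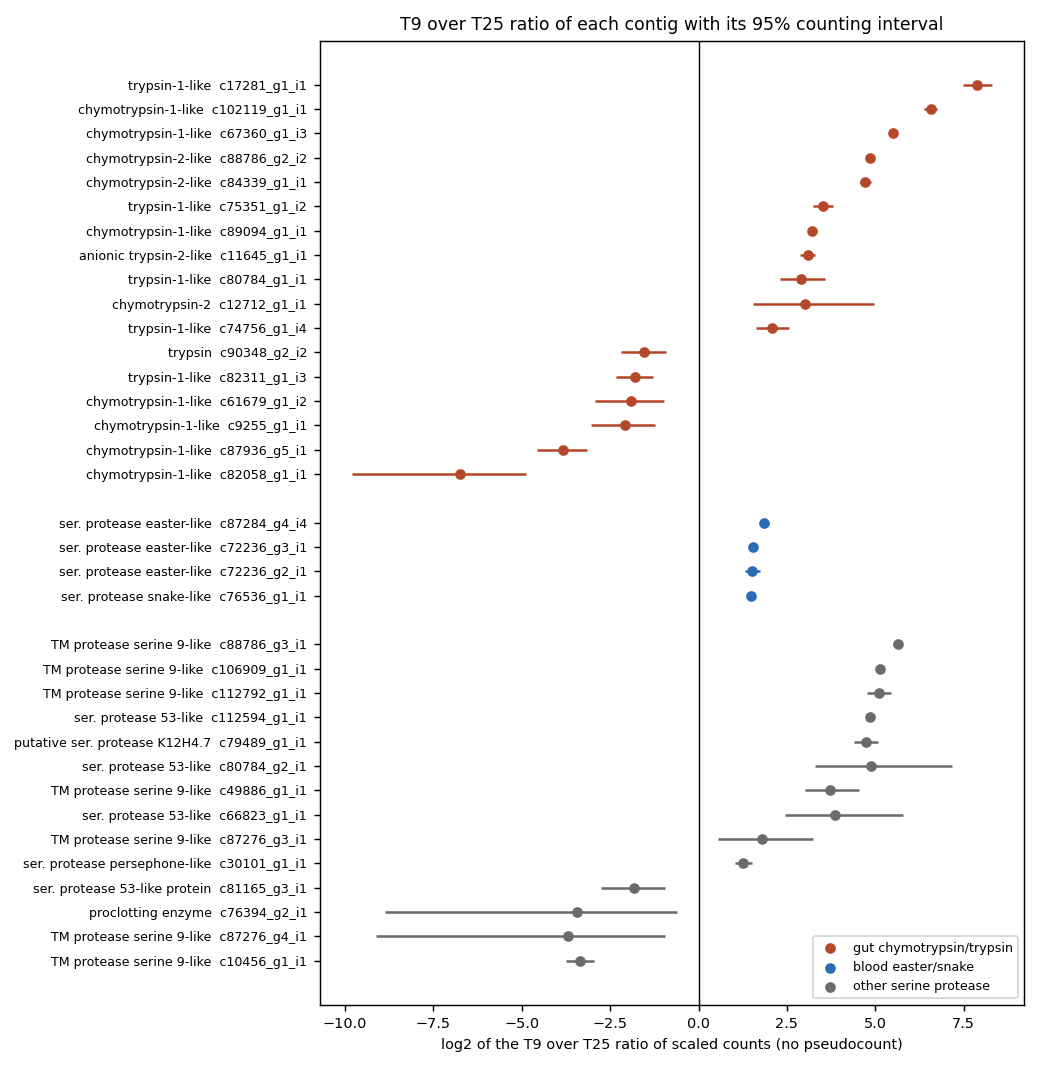
Log2 of the T9 over T25 ratio of scaled counts for each contig, with its 95% counting interval, coloured by name group. The 4 blood contigs lie between 2.78-fold and 3.61-fold higher, while the gut contigs run from 236-fold higher to 108-fold lower.

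Side by side, the ratios of the 17 gut contigs varied widely and those of the 4 blood contigs little. The blood group is small, and 2 of its contigs match 1 gene. Its ratios also lie near 2.35-fold, the smallest ratio found in the table, which leaves out smaller ratios, so its range is cut off from below. Every higher gut contig was at least 4.21-fold higher, and no blood contig exceeded 3.61-fold, but the counting intervals of the lowest gut ratios reached into the blood range. Which group stood higher depended on the measure and was alike in both libraries. The median level of the blood contigs was 64.7 FPKM in T9 and 17.8 FPKM in T25. For the 17 gut contigs the median was lower, 21.7 FPKM in T9 and 3.73 FPKM in T25. The summed level of the gut contigs was 2622 FPKM in T9 and 112 FPKM in T25, above that of the blood contigs with 279 FPKM in T9 and 82.9 FPKM in T25. Whether the ratios of the groups differ was not tested, since there is 1 library per temperature.

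The other serine protease names covered 14 contigs, 10 of them higher in T9, or 71.4% against 54.7% of all contigs, and 4 lower. At least 4-fold higher were 8 of the 14, against 36.9% of all contigs, and at least 4-fold lower were 3, against 30.8%. Their median log2 ratio was 3.62, against 1.45 for all contigs. Summed counts were 284454 in T9 and 8677 in T25, 30.3-fold (29.7 to 31.0) higher. The name transmembrane protease serine 9 comes from a mammalian membrane protease with several protease domains, and in insects it is given by sequence likeness alone. It was carried by 7 contigs in one or the other database, 5 higher and 2 lower in T9, or 71.4% higher against 54.7% of all contigs.

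The most abundant protease was the transmembrane protease serine 9-like c106909_g1_i1, with 3847 FPKM in T9 and 101 FPKM in T25. It ranked at place 5 of the table in T9 and at place 57 in T25, and held 37.6% of the counts of the 35 contigs in T9 and 22% in T25. A short companion of the same NT gene, c49886_g1_i1, had 115 FPKM in T9 and 7.61 FPKM in T25, 13.3-fold (8.13 to 23.2) higher. The contig c88786_g3_i1 had 632 FPKM in T9 and 11.6 FPKM in T25, 49.8-fold (45.6 to 54.4) higher. Its closest UniProt entry is trypsin-1 of the crayfish Astacus, a secreted digestive enzyme.

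Contigs that NT matches to another gene of that name, LOC105194707, did not share a side. The contig c10456_g1_i1 had 61 counts in T9 and 576 in T25, 10.2-fold (7.83 to 13.5) lower, and its closest UniProt entry is also trypsin-1 of Astacus. For c87276_g4_i1 there were 1 count in T9 and 12 in T25, 13.0-fold (1.92 to 554) lower. In contrast, c87276_g3_i1 had 26 counts in T9 and 7 in T25, 3.44-fold (1.45 to 9.38) higher. Their best EggNOG matches are 3 different proteins, although NT names 1 gene for all of them.

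For 3 contigs the databases disagreed on the name group, with a chymotrypsin in NT and a protease name outside the gut group in NR. The contig c112594_g1_i1, serine protease 53-like by NR and chymotrypsin-1 by NT, had 1369 FPKM in T9 and 43.2 FPKM in T25, 28.9-fold (27.9 to 30.1) higher. The contig c112792_g1_i1 had 72.4 FPKM in T9 and 1.92 FPKM in T25, 34.3-fold (27.4 to 43.6) higher. The third, c66823_g1_i1, had 63 counts in T9 and 4 in T25. Counted with the gut contigs, they bring that group to 14 of 20 higher in T9, against 54.7% of all contigs, and its median log2 ratio to 3.15.

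Of the remaining names, the putative serine protease K12H4.7 (c79489_g1_i1) had 25.0 FPKM in T9 and 0.86 FPKM in T25, 26.6-fold (21.3 to 33.6) higher. It belongs to the Pfam family Peptidase_S28, whose members remove residues from the ends of peptides, so it is a serine protease of another family. Serine protease 53-like c80784_g2_i1 had 95 counts in T9 and 3 in T25, 29.3-fold (9.73 to 145) higher. The contig c76394_g2_i1 had 1 count in T9 and 10 in T25, 10.8-fold (1.54 to 469) lower. NR and NT name it proclotting enzyme, a name from blood clotting, and NR also serine proteinase stubble. Like the persephone-like contig it carries none of the words easter or snake, so it was not counted with the blood group. Stubble is a membrane protease of Drosophila that shapes the epidermis.

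The name of 1 contig was not borne out by its domain. The contig c81165_g3_i1, serine protease 53-like in NR, had 15 counts in T9 and 49 in T25, and its Pfam family is a reverse transcriptase, an enzyme of mobile elements. Apart from it, c79489_g1_i1 and the clip-domain contig c72236_g2_i1, 32 of the 35 contigs carried the Pfam family Trypsin and the same 32 the GO term serine-type endopeptidase activity. Of all 4487 contigs, 34 carried that Pfam family and 37 that GO term.

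Several contigs have the same best-matching protein in EggNOG. This match comes from the same sequences as the names, so it is not independent of them. The 5 contigs of one such protein were c17281_g1_i1, c66823_g1_i1, c80784_g1_i1, c88786_g2_i2 and c88786_g3_i1. All were on the higher side, against 54.7% of all contigs, with 60001 counts in T9 and 1203 in T25, 46.2-fold (43.6 to 48.9) higher. They include the 2 contigs of LOC105200925, so they are not separate cases. Another protein was shared by 4 contigs, with c102119_g1_i1, c112594_g1_i1 and c112792_g1_i1 on the higher side and c61679_g1_i2 on the lower. The 3 easter-like contigs also shared their match, with 15921 counts in T9 and 4349 in T25, 3.39-fold (3.28 to 3.50) higher. Of 34 contigs with an NT gene identifier, 29 identifiers were distinct, and 4 identifiers were shared by 9 contigs.

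Of 17 contigs named for other peptidases, which finish protein digestion or act in cells, 12 were higher in T9, against 54.7% of all contigs. The median log2 ratio of this list was 1.56, close to the 1.45 of all contigs. Among its higher contigs the median was 1.86, against 2.15 for all contigs higher in T9. Among its lower contigs it was -1.76, against -2.18. At least 4-fold higher were 6 of the 17, or 35.3%, against 36.9% of all contigs. Zinc carboxypeptidase-like c101808_g1_i1, of a family that trims residues from the carboxyl end, had 403 FPKM in T9 and 14.0 FPKM in T25, 26.2-fold (24.5 to 28.1) higher. The lysosomal protease cathepsin L (c30125_g1_i1) was 3.13-fold (3.07 to 3.20) higher, with 258 FPKM in T9 and 75.3 FPKM in T25. On the lower side stood cytosolic carboxypeptidase 1-like c90136_g5_i11, a processing enzyme of tubulin, with 15.2 FPKM in T9 and 33.8 FPKM in T25. The carboxypeptidase N subunit 2-like c81178_g1_i1, listed by its name although that is the name of a subunit, had 19 counts in T9 and 62 in T25.

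Protease inhibitors, which hold serine proteases in check, were higher in 4 of 5 contigs, against 54.7% of all contigs. In the library with fewer counts, 3 of these 5 had 3 or fewer. Kunitz-type inhibitor c30495_g1_i1 had 1302 FPKM in T9 and 469 FPKM in T25, 2.54-fold (2.48 to 2.59) higher, and it held 99.2% of the counts of the list in each library. The chymotrypsin inhibitor-like c87446_g1_i3 had 252 counts in T9 and 66 in T25, while serpin B3-like c93265_g1_i1, of the family that traps clip proteases, had 1 count in T9 and 25 in T25. Contigs listed for Toll receptors, peptidoglycan recognition and related defence proteins were higher in 8 of 8 contigs, against 54.7% of all contigs. They are not 8 separate cases, since some share the NT gene LOC105196158 and others LOC105196795, whose leading names in NR and NT are uncharacterised. In T25, 2 of the 8 had 10 or fewer counts. The median log2 ratio of the list was 2.36, against 1.45. Most counts were held by the peptidoglycan-recognition protein SC2-like contigs c112619_g1_i1, with 77.7 FPKM in T9 and 25.8 FPKM in T25, and c108287_g1_i1, with 18.8 FPKM in T9 and 2.27 FPKM in T25. In Drosophila, PGRP-SC2 breaks down peptidoglycan of bacterial cell walls.

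**Figure D3:**
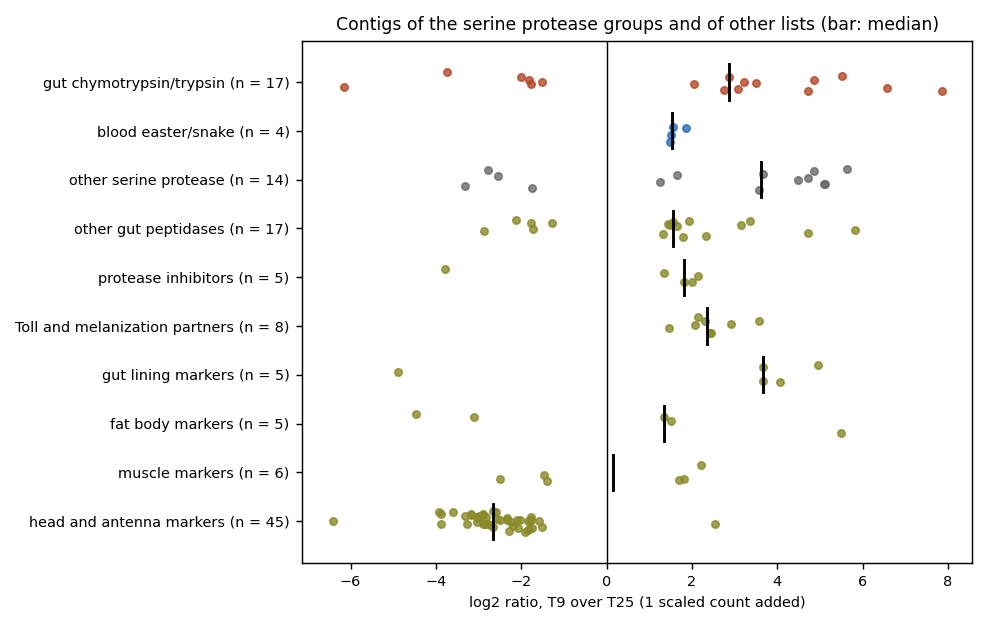
Log2 ratio of T9 over T25 (1 scaled count added) for each contig of the serine protease groups, of the other peptidase, inhibitor and Toll lists, and of the marker lists, with a bar at the median of each list. The blood contigs have a median of 1.53, and 44 of the 45 contigs of the head and antenna list lie below 0, against 45.3% of all contigs.

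Markers of other tissues also differed between these whole-body libraries. Peritrophins were higher in T9 in 4 of 5 contigs, and the fat body markers in 3 of 5, against 54.7% of all contigs. Odorant receptors and rhodopsins, markers of the head and antenna, were higher in 1 of 45 contigs, against 54.7% of all contigs. They had 1051 counts in T9 and 5550 in T25, of which the coreceptor contig c68849_g2_i1 held 62.6% in T9 and 50.3% in T25. In the library with fewer counts, 34 of the 45 had 10 or fewer and 18 had 3 or fewer. Over all 4487 contigs, 2610 had 10 or fewer there and 1502 had 3 or fewer. Muscle markers were higher in 3 of 6 contigs, with 48566 counts in T9 and 94659 in T25. The troponin T contig c101719_g1_i1 held 60.6% of that sum in T9 and 80.0% in T25. Without it the T9 over T25 ratio of the muscle sums was 0.94. No contig of these lists was at 0 in a library, as the table leaves such contigs out. Their part in the protease results was not tested.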

How the data were processed

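The authors sequenced RNA of whole workers as a T9 and a T25 library. Per the labels and the methods, reads were trimmed with Trimmomatic 0.38, checked with FastQC 0.11.7, pooled and assembled with Trinity, clustered with CD-HIT, and each library was aligned to the unigenes with Bowtie 1.1.2. The deposited estimated counts come from RSEM, as whole numbers without normalization, and the authors left out contigs with a count of 0. The deposited FPKM values are scaled by contig length and library size by the authors. The deposited log2 values are log2(CPM + 1), and the library sizes used here were recovered from them. The deposited fold change, a signed score, and the p-values hold the authors' comparison of 1 library with 1 and were not used.

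Ratios of scaled counts and exact Clopper-Pearson 95% intervals were computed with scipy 1.17.1 and pandas 2.3.3 (numpy 2.4.6, under Python 3.11.15), and matplotlib 3.10.9 drew the plots. Intervals cover counting error only. For log2 ratios 1 scaled count was added. The table sums to 7176142 counts in T9 and 11259918 in T25, a part of each library. Names were sought in NR and NT without regard to case, and NR came first where they disagreed. The members and the lists were chosen with earlier results of these data known. Any member could be named, and of the other lists up to 2 contigs with the most counts on each side. The venom serine protease list held 0 contigs. Calculations were tested on simulated data. Alternatives covered scaling, pseudocount, low counts, database and counting unit.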

Additional observations from a re-analysis of the deposited data

How the results depend on the processing

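No paired analysis was possible because each temperature has 1 library, and for the same reason no library could be left out. Scaling by the deposited FPKM, by unscaled counts, or with the counts of the mitochondrial contig taken off both library sizes (chosen after seeing the data, like the counting of NT chymotrypsins as gut) shifted ratios by less than the smallest difference among the 35 contigs, so no direction could turn. The sizes of summed ratios moved. For all 35 contigs the ratio of sums was 20.4-fold, and 22.1-fold by summed FPKM, 22-fold unscaled, 17.3-fold without the mitochondrial contig and 16.3-fold without the largest member. For gut contigs, 23.6-fold became 25.5-fold unscaled, 20.1-fold without the mitochondrial contig, 19.6-fold without the largest member and 25.6-fold with NT chymotrypsins counted as gut. For blood contigs, 3.22-fold became 3.37-fold by FPKM, 3.48-fold unscaled, 2.74-fold without the mitochondrial contig and 2.84-fold without the largest member, and their median log2 ratio 1.53 became 1.30 without the mitochondrial contig. For the other names, 30.3-fold became 28.7-fold by FPKM, 32.8-fold unscaled, 25.8-fold without the mitochondrial contig and 25.9-fold without the largest member. By NR names alone 1 blood contig is left, and it is higher in T9. With 1 count per distinct NR description, 6 of 9 other names were higher, against 10 of 14. Depth limits most the 9 contigs with a total under 100 counts.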

Other observations

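Contigs outside the chosen names also touch this enzyme family, and they were picked after their values had been seen. The contig c78777_g1_i3, uncharacterised in NR and NT, has Protein spaetzle 5 of Drosophila as its UniProt match and the Pfam family Spaetzle, the ligand family of Toll receptors. It had 6493 counts in T9 and 159 in T25, 37.8-fold (32.3 to 44.5) higher in T9, and 88 FPKM in T9 against 2.13 FPKM in T25. The contigs with the Pfam family Trypsin that carry no protease name in NR or NT are c79422_g1_i3, with 902 counts in T9 and 2255 in T25, 2.70-fold (2.50 to 2.92) lower, and c88824_g1_i2, with 21046 counts in T9 and 6662 in T25, 2.92-fold (2.84 to 3.01) higher. Counting the 34 contigs of that Pfam family in place of names gives 24 higher in T9, against 54.7% of all contigs.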
